A study of Mus musculus with 21 samples.

Results

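Wild-type CD-1 mice, which are outbred, gave whole testes at postnatal day (pnd) 2 and at gestation day (gd) 11, the last and the earliest stage of a series on testis development, and the 2 stages were compared. The pnd2 group held 3 arrays (replicates 1 to 3) of testes from male mice of Theiler stage 27, which the labels describe as not pooled. The gd11 group held 5 arrays (replicates 16 to 20) of testes from male embryos of Theiler stage 18, each made from a pool of 2. No group carried a treatment or an engineered allele, and by the labels the groups differ in age and pooling. The 8 arrays were chosen by the stage in their labels, out of 20 testis arrays and 21 arrays in all. Total RNA was labelled with biotin and hybridised to oligonucleotide arrays of 1 colour, and each value is the deposited intensity of a probe set, a group of short probes to 1 transcript. The series' design text describes single animals, each from its own dam, at every stage, which goes against the pools that the gd11 labels give. The p-values of the comparison rest on 1 spread a gene, fitted over all 20 testis arrays, and not on that of gd11 or pnd2 alone. If the labels hold, this spread mixes that between pools, as at gd11, with that between animals, as at pnd2. Age and pooling then cannot be told apart.

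As background, the gonad at gd11 in the mouse is a bipotential ridge beside the mesonephros, just before and while the Y-linked gene Sry starts Sertoli cell differentiation. Sertoli cells then enclose the germ cells in cords and secrete anti-Müllerian hormone, fetal Leydig cells between the cords make androgen, and peritubular myoid cells and basement membrane surround the cords. Male germ cells stop dividing in mid-gestation, silence transposons through the piRNA pathway and resume division after birth as the first spermatogonia. Red cells of the embryo leave the yolk sac with embryonic globins, which fetal and adult erythroid cells no longer make.

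Each of the 14338 genes tested, of 18193 with a probe set of their own, was represented by 1 probe set. Changes are differences of log2(intensity + 22.4), pnd2 minus gd11, with the standard error (SE) of a limma fit over the 6 stages and an adjusted p (Benjamini-Hochberg over all genes), and a gene was called at an adjusted p below 0.05. Values per array are given in the order of the replicates (1 to 3 for pnd2, 16 to 20 for gd11), and means as mean ± SD over 3 pnd2 and 5 gd11 arrays. Near background means a value or stage mean under 71.6, below which 40% of the testis values lie. The log2 change of a gene that is near background at 1 stage depends on the 22.4 added: over the settings tried, that of Hbb-y ran from -13.02 to -8.35 and that of Cst12 from 7.17 to 9.28. In whole organs, fewer cells of a type and less RNA per cell cannot be told apart.

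The arrays of the 2 groups also differed in measures of quality. The pnd2 arrays correlated with each other at 0.976 to 0.979 and the gd11 arrays at 0.934 to 0.972, against a mean of 0.908 between the groups (Pearson, over all probe sets except controls). Median intensities were 107 to 113 on pnd2 arrays and 111 to 125 on gd11 arrays. The 3' to 5' ratio of the actin control probe sets, a sign of RNA length, was 1.33 to 1.42 on pnd2 arrays and 1.19 to 1.29 on gd11 arrays, and that of Gapdh was 0.667 to 0.702 and 0.717 to 0.813. In 26 of 28 tested neural genes, gd11 replicates 16 and 17 were the highest 2 of the 5 gd11 arrays, and the summed intensity of these genes was 6796 to 7832 on pnd2 arrays and 18285 to 156918 on gd11 arrays. Values without these 2 arrays are given beside many of the results that follow. No batch is named in the labels.

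At pnd2, 3471 genes were higher (24.2% of the 14338 tested) and 3494 were lower (24.4%), so that 6965 genes (48.6%) were called. Of them, 1610 rose at least 2-fold (11.2%) and 1078 fell at least 2-fold (7.52%). The rises reached further than the falls, with 229 genes up by 3 or more on the log2 scale and 89 down by as much. The median change was 0.94 among the genes called higher and -0.69 among those called lower, beside -0.03 over all genes tested. In 5952 of the 6965, no pnd2 array overlapped a gd11 array. Arrays did not overlap in 3233 genes upwards (22.5%) and 3160 downwards (22.0%) of all tested. Without gd11 replicates 16 and 17, 3331 genes were higher (23.2%) and 3442 lower (24.0%), and 3027 of the 3471 and 3023 of the 3494 were called the same way again. Of the 1610 that rose, 528 had a gd11 mean under 71.6, and of the 1078 that fell, 430 had a pnd2 mean under it. The share among all genes tested is not given, so neither count shows an excess.

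**Figure D1:**
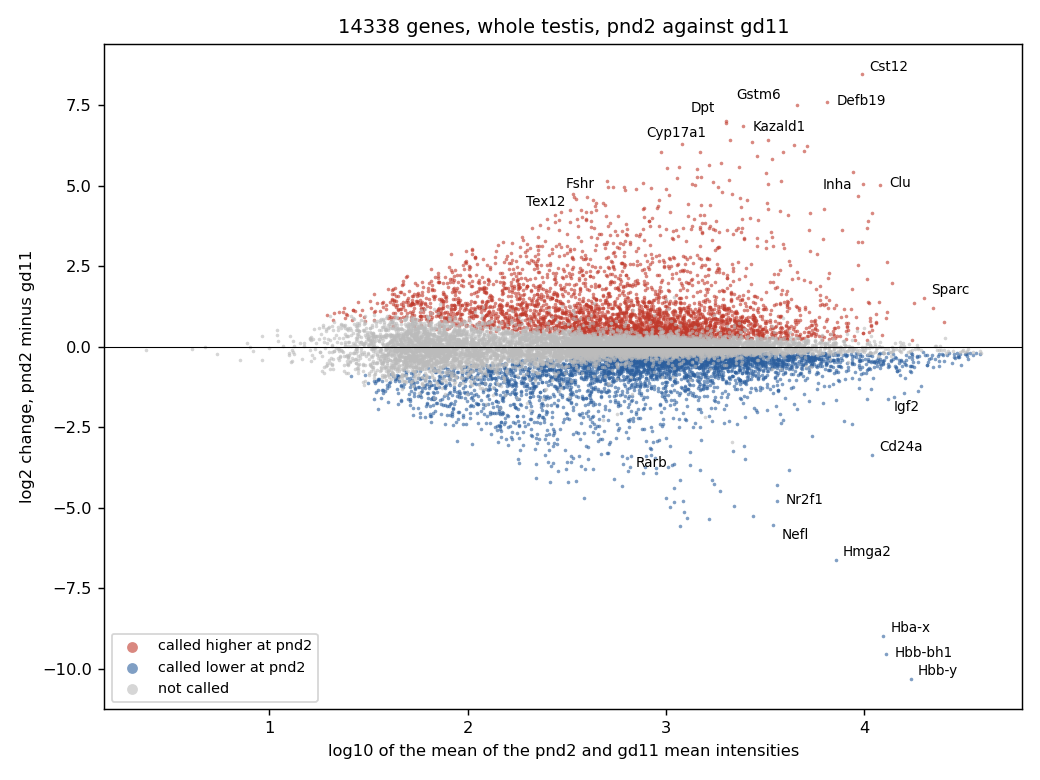
Log2 change of 14338 genes, pnd2 minus gd11 (vertical axis), against the log10 of the average of the pnd2 and gd11 mean intensities (horizontal axis), 1 point a gene. Red points were called higher at pnd2 (3471 genes) and blue points lower (3494 genes); Cst12, Defb19 and Gstm6 stand at the top and the embryonic globins Hbb-y, Hbb-bh1 and Hba-x at the bottom.

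The largest rises on the log2 scale were those of Cst12, Defb19, Gstm6, Dpt and Cyp17a1, and the largest falls were those of the embryonic globins Hbb-y, Hbb-bh1 and Hba-x and of Hmga2. Cst12, a cystatin of Sertoli cells (chromosome 2), read 18929, 19094 and 20476 on the pnd2 arrays, against 24.7, 88, 33.1, 34.2 and 9.83 on the gd11 arrays. Its gd11 values were near background on all but replicate 17, and the log2 change was 8.46 ± 0.34 (adjusted p = 4.72e-13). Gstm6, a glutathione transferase (chromosome 3), read 8357, 9882 and 9159 on the pnd2 arrays, against 5.22, 21, 70.7, 50.8 and 16.1 at gd11, a log2 change of 7.51 ± 0.29 (adjusted p = 3.39e-13). Every gd11 value of Gstm6 lay under 71.6, and every pnd2 value lay more than 100-fold above the highest of them. Hmga2, an architectural chromatin protein of embryonic cells and a target of let-7 microRNAs (chromosome 10), read 93.3, 115 and 152 at pnd2, against 8894, 11941, 17475, 16621 and 16226 at gd11. Replicates 16 and 17 were the lowest of its 5 gd11 values, and the log2 change was -6.62 ± 0.19 (adjusted p = 1.26e-14), or -6.90 without them. Other probe sets of Hmga2 changed by -8.11, -7.22 and -3.19, with pnd2 means near background. Hbb-y, the embryonic beta-like globin of yolk sac red cells (chromosome 7), read 1.84, 12.1 and 0.840 at pnd2, against 31864, 32760.5, 38281, 33415 and 34326 at gd11, the largest fall among the called genes (-10.31 ± 0.41, adjusted p = 4.72e-13). At gd11 it was among the brightest genes of the arrays, whose maxima were 39857 to 50373, and at pnd2 it was near background on all 3.

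By mean intensity, the 6 largest rises were Clu, Cst12, Gstm2, Inha, Gstm1 and Sparc. Clu, the secreted chaperone clusterin, averaged 23109 ± 2050.0 at pnd2 and 896 ± 657 at gd11 (5.02 ± 0.47, or 4.26 without replicates 16 and 17), and Sparc, a matrix glycoprotein, averaged 28896 ± 1268 and 11116 ± 4656, a log2 change of only 1.52 ± 0.28. After the 3 globins, the largest falls in mean intensity were Cd24a, a surface glycoprotein (1929 ± 146 at pnd2 against 19932 ± 1428 at gd11), Mdk, the growth factor midkine (10194 ± 905 against 27158 ± 5730.3), and Peg3, an imprinted zinc finger gene (11413 ± 1555 against 27305 ± 6879). Other large falls were those of Asb4 (-5.36 ± 0.44), Fndc3c1 (-5.32 ± 0.32), Shisa3 (-5.14 ± 0.65) and the transcription factor gene Foxd1 (-4.98 ± 0.47), all near background at pnd2, against gd11 means of 3224, 2503, 2429.5 and 2061. Without replicates 16 and 17 the falls of Asb4 (-6.05) and Shisa3 (-6.02) were larger. Kazald1 (4879 ± 727 at pnd2 against 22.3 ± 19.3 at gd11) and Pdlim3, a protein of the actin cytoskeleton (8744 ± 631 against 116 ± 86.1; 6.26 ± 0.39, or 5.66 without the 2 arrays), completed the 12 largest rises.

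**Figure D2:**
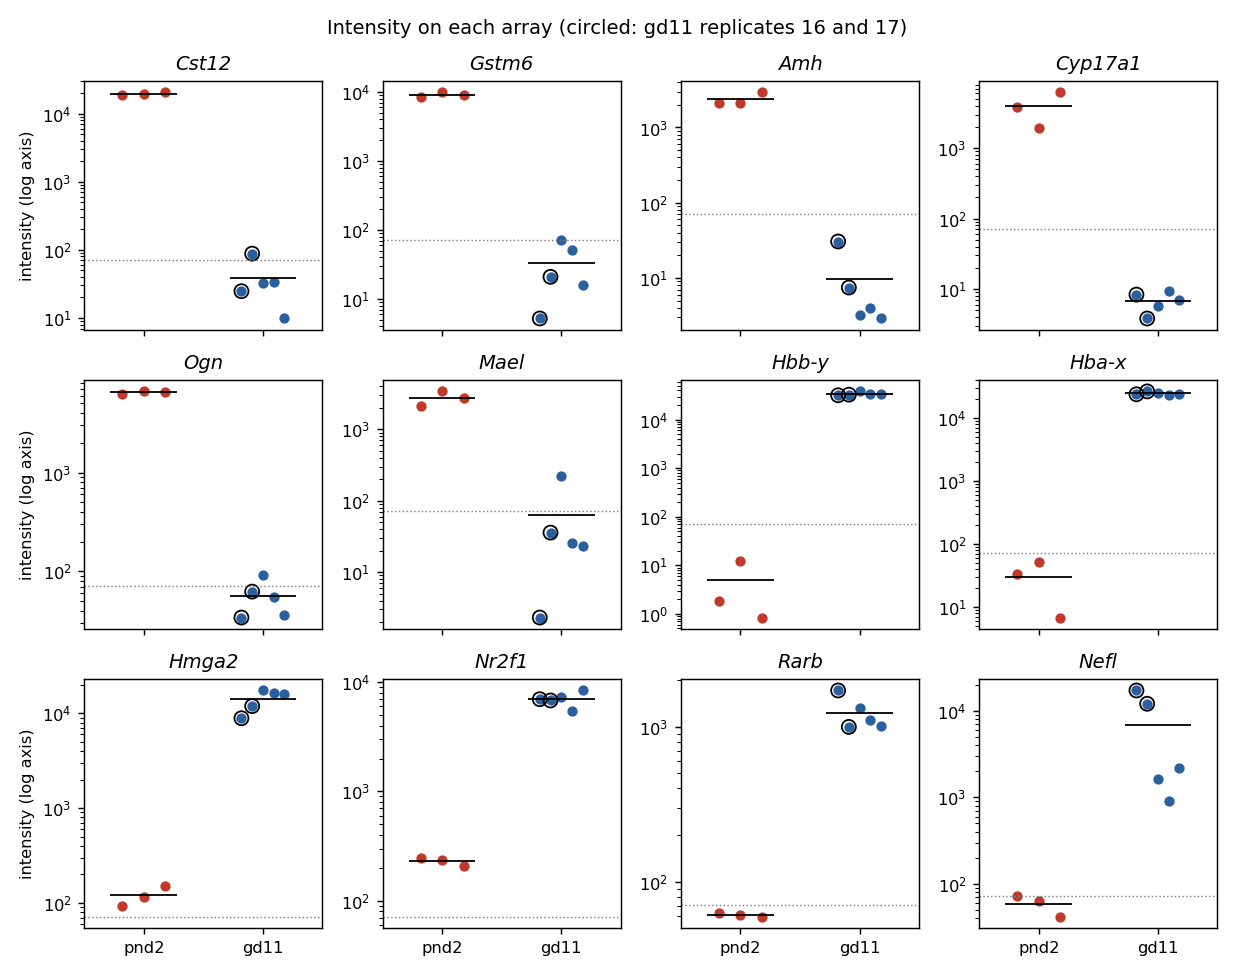
Intensity of 12 genes on the 3 pnd2 arrays (red, left in each panel) and the 5 gd11 arrays (blue, right), on a log axis, with the mean as a black bar. The dotted line is 71.6 and circles mark gd11 replicates 16 and 17; no pnd2 value overlaps a gd11 value in any panel, and for Nefl the circled arrays are the highest 2 of gd11.

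Sertoli cell genes were mostly higher at pnd2. Of 31 tested, 25 rose and 3 fell, with a median change of 4.02 beside -0.03 over all genes. Near background at gd11 were 14 of the 31, where a fall can hardly be seen. The median log2 level of the list was 10.95 to 11.53 on the pnd2 arrays and 6.63 to 7.20 on the gd11 arrays, so the arrays of the 2 stages did not overlap. Amh, the anti-Müllerian hormone that regresses the female duct, read 2103, 2132 and 2933 at pnd2, against 30.5, 7.45, 3.19, 4.02 and 2.89 at gd11. Its gd11 values all lay near background, the highest on replicate 16, and the log2 change was 6.28 ± 0.34 (adjusted p = 2.35e-11). Dhh, the hedgehog ligand that Sertoli cells send to Leydig and myoid cells, read 6007, 5146 and 5860.4 at pnd2 against 111, 53.1, 57.6, 68.5 and 76.5 at gd11 (5.92 ± 0.18, adjusted p = 2.89e-14). Fshr, the receptor for follicle-stimulating hormone, averaged 792 ± 90.6 at pnd2 and 11.3 ± 11 at gd11, a log2 change of 4.64 ± 0.23.

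Among other secreted or enzymatic products, Inha, the inhibin alpha subunit, averaged 19011 ± 729 at pnd2 against 596 ± 219 at gd11, and Inhbb, the inhibin and activin beta B subunit, 7711 ± 534 against 493 ± 269. Gdnf, the growth factor of spermatogonial stem cells, averaged 839 ± 173 against 36.2 ± 67.8. Hsd17b1, a steroid dehydrogenase of fetal Sertoli cells, averaged 4167 ± 233 at pnd2 and 29.9 ± 19.3 at gd11 (6.41 ± 0.34), and Ptgds, a prostaglandin D synthase, 5394 ± 1003 and 52.3 ± 40.2 (6.34 ± 0.33). The transcription factor genes that act before the cords form differed among themselves. Sox9, the testis-determining factor downstream of Sry, averaged 1075 ± 87.3 at pnd2 and 912 ± 454 at gd11 and was not called (0.35 ± 0.25, adjusted p = 0.262). Without gd11 replicates 16 and 17 it was called higher (0.76, adjusted p = 0.000616), as it was without replicate 17 alone. Its other probe set was called higher with all arrays (0.82, adjusted p = 0.0157), with means of 916 at pnd2 and 548 at gd11. Sox8, its paralogue, rose (632 ± 113 at pnd2 against 24.8 ± 18.4 at gd11, 3.87 ± 0.30). Wt1, which the whole gonadal ridge expresses, averaged 3181 ± 312 at pnd2 and 3702 ± 1807 at gd11 and was not called (-0.02 ± 0.33); without replicates 16 and 17, or without 16 alone, it was called lower (-0.56, adjusted p = 0.00524 without both).

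The 3 members that fell were Krt18, a keratin of simple epithelia and of immature Sertoli cells (722 ± 80.3 at pnd2 against 2389 ± 1209 at gd11), Rhox5, an X-linked homeobox gene (112 ± 62.7 against 716 ± 243), and Sox10, a factor best known from neural crest (69 ± 16.9 against 561 ± 589). Sox10 is also on the neural list, and its change was -2.06 ± 0.55 with all arrays and -0.98 without replicates 16 and 17. Without those 2 arrays 25 Sertoli members rose and 5 fell (also 5 without replicate 16 alone), with Wt1 and Gjb1, a gap junction gene, added to the falls.

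Cystatins and beta-defensins, small secreted proteins of the male tract, were often dim: 9 of 16 on the array stayed under the filter on low values. Of the 7 tested, 6 rose and none fell by limma (6 and 0 at an unadjusted p under 0.05). At gd11, 5 of the 7 were near background and could hardly fall. Such a gene can pass the filter on arrays of later stages alone, so the filter partly sets these counts. Defb19, a beta-defensin of fetal Sertoli cells, read 10502, 13496 and 14892 at pnd2, against 5.65, 65.8, 53.1, 77.8 and 44.3 at gd11 (7.61 ± 0.31, adjusted p = 6.94e-13), and no array of the 2 stages came within 100-fold of the other stage. Defb42 averaged 792 ± 48.1 at pnd2 and 41 ± 15.1 at gd11. Cst9, another cystatin, read 4643, 777 and 6826 at pnd2 against 45.9, 103, 90.2, 20.8 and 66.8 at gd11. Replicate 2 was far under the other pnd2 arrays, and the change was 5.17 ± 0.48 with all arrays, 6.11 without that replicate and 4.56 without replicate 3. Cst3, the widespread cystatin C, rose by much less (9107 ± 812 against 5420.3 ± 930.0, 0.76 ± 0.13).

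Because Cst12 and Inha rose together with Nr5a1, a nuclear receptor of gonadal somatic cells, the 250 bases before their RefSeq starts are shown (GRCm38.p6), with matches to AGGTCA or CAAGGTC, letters that nuclear receptors of this kind bind, in capitals. For Cst12 they are chr2:148789115-148789364, plus strand, and for Inha chr1:75507359-75507608, plus strand.
Cst12: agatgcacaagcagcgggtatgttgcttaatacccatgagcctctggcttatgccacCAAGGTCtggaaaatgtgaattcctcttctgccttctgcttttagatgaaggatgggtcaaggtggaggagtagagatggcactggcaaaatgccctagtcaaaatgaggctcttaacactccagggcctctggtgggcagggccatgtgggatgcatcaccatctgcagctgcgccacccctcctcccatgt
Inha: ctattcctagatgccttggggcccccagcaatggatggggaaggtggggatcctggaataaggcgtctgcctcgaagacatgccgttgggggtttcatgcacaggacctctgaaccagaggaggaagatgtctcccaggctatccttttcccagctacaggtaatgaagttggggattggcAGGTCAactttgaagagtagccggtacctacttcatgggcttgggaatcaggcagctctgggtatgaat
Cst12 holds CAAGGTC from 193 bases before the start and no AGGTCA, and Inha holds AGGTCA from 69 bases before it and no CAAGGTC. On either strand, 14.0% of 32851 promoters of this length hold AGGTCA and 3.32% hold CAAGGTC. A match describes the letters only.

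Leydig cell and steroid genes followed the same direction. Of 17 tested, 14 rose and none fell by limma (15 and 0 at an unadjusted p under 0.05), with a median of 2.57, and the counts were the same without replicates 16 and 17. Near background at gd11 were 7 of the 17, where a fall can hardly be seen. Cyp17a1, the hydroxylase and lyase of androgen synthesis (chromosome 19), read 3882, 1914 and 6216 at pnd2, against 8.33, 3.81, 5.66, 9.21 and 6.88 at gd11. It was near background on all 5 gd11 arrays, and its change was 6.96 ± 0.34 (adjusted p = 7.31e-12). Cyp11a1, which cleaves the cholesterol side chain, read 2751, 2343 and 2288 at pnd2 against 14.6, 149, 117, 92.1 and 168 at gd11 (4.44 ± 0.46, adjusted p = 2.32e-07). Star, the carrier of cholesterol into mitochondria, read 1279.9, 856 and 1732 at pnd2 against 9.14, 112, 273, 66.5 and 163 at gd11 (3.45 ± 0.54, adjusted p = 3.17e-05). All 3 were separated between the stages on every array. Hsd3b1 (10144 ± 1118 at pnd2 against 117 ± 45.9 at gd11) and Hsd17b3, which makes testosterone and is a gene of fetal Sertoli cells in the mouse (3242 ± 658 against 45.8 ± 22.9), rose by 6.24 ± 0.33 and 5.64 ± 0.25. Nr5a1, also called steroidogenic factor 1, rose by less (2680.4 ± 247 against 481 ± 217, 2.55 ± 0.28). Cyp11b1, an enzyme of the adrenal cortex and of adrenal-like cells in the fetal mouse testis, rose (192 ± 64.7 against 32.4 ± 18), whereas Cyp21a1, an adrenal enzyme, was close to background at both stages (81.1 ± 8.30 and 73.9 ± 27.6) and was not called.

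Cholesterol synthesis did not move as a group: of 19 tested, 3 rose and 5 fell, against 24.2% and 24.4% of all genes. The median was -0.15, or 0.05 without replicates 16 and 17. Ebp rose (1150.3 ± 91.4 at pnd2 against 669 ± 80.9 at gd11), Pmvk, a kinase of the mevalonate pathway (291 ± 12.9 against 613 ± 50.9), and Tm7sf2 (279 ± 33.2 against 646 ± 262) fell, and Sqle, an oxidase early in the sterol branch, was not called (2558 ± 266 and 3086 ± 812). Without pnd2 replicate 1, 1 member rose in place of 3.

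Genes of fetal germ cells and of meiosis were mostly higher at pnd2. Of 29 tested genes of fetal germ cells of the male or of the piRNA pathway, 23 rose and 2 fell, with a median of 2.25 (25 and 2 without replicates 16 and 17). Near background at gd11 were 19 of the 29, where a fall can hardly be seen. Ddx4, an RNA helicase of germ cells, read 1399.6, 2040.4 and 1841 at pnd2, against 46.3, 85, 75.1, 87.3 and 33 at gd11 (4.38 ± 0.29, adjusted p = 5.56e-10). Dazl, an RNA-binding protein that licenses germ cells for sexual development, read 3789, 5422 and 5704 at pnd2 against 226, 433, 411, 276 and 165 at gd11 (4.00 ± 0.30, adjusted p = 2.12e-09). Mael, a piRNA pathway protein, read 2154, 3410.3 and 2799 at pnd2 against 2.31, 35.8, 225, 26 and 23.1 at gd11 (5.52 ± 0.49, adjusted p = 2.82e-08). The pnd2 and gd11 arrays did not overlap in any of the 3, and Dazl was above 71.6 at gd11 already. Gtsf1 (4.85 ± 0.29), Tex101 (4.63 ± 0.31), Slc25a31 (5.03 ± 0.34), Tdrd1 (2.87 ± 0.28), Piwil2 (3.60 ± 0.25) and Piwil4 (1.35 ± 0.38) rose too, the last with a pnd2 mean of only 92.8. The 2 that fell were the X-linked homeobox genes Rhox6 (4.03 ± 1.05 at pnd2 against 207 ± 79.4 at gd11) and Rhox9 (59.1 ± 15.1 against 287 ± 104).

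Of 23 meiosis genes, 18 rose and none fell by limma (18 and 0 at an unadjusted p under 0.05), with a median of 2.00. Near background at gd11 were 16 of the 23, where a fall can hardly be seen. Tex12 (4.58 ± 0.31), Syce1 (3.13 ± 0.33), Sycp1 (3.01 ± 0.34) and Sycp3 (2.86 ± 0.34), parts of the synaptonemal complex that pairs chromosomes, Tex11 (3.69 ± 0.36), needed for recombination, and Stra8, which starts meiosis on retinoic acid (526 ± 312 at pnd2 against 52.8 ± 30.1 at gd11), were among them. Rec8, the meiotic cohesin, was near background at both stages (54.5 ± 11.3 and 43.6 ± 36) and was not called.

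Of 26 spermatogonia genes, 14 rose and 3 fell, with a median of 0.61. Dmrt1, a factor of Sertoli cells and spermatogonia (4570.4 ± 351 at pnd2 against 225 ± 112 at gd11), Sohlh1 (319 ± 66.5 against 32.9 ± 15) and Zbtb16, a self-renewal factor (974 ± 260.1 against 285 ± 313; 2.21 ± 0.52, or 3.09 without replicates 16 and 17), rose the most. Gfra1, the receptor of Gdnf, was not called with all arrays (0.64 ± 0.40, adjusted p = 0.196) and was called without replicates 16 and 17 (1.27) or without 16 alone. The falls were Utf1, Cdh1, which is the epithelial cadherin, and Crabp1, a retinoic acid binding protein (385 ± 118 against 4629.7 ± 1752).

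Of 30 genes of pluripotency and primordial germ cells, 7 rose and 8 fell, near the 24.2% and 24.4% of all genes, with a median of -0.15. Dppa3, a maternal and germ line factor, read 51.2, 25.1 and 33.6 at pnd2, against 284, 464, 584, 311 and 387 at gd11 (-2.84 ± 0.40, adjusted p = 9.41e-06), and was near background on all 3 pnd2 arrays. Dppa5a (287 ± 7.11 at pnd2 against 1258 ± 548 at gd11) and Utf1 (145 ± 43.8 against 450.2 ± 111) fell as well. Sox2, which neural progenitors share with pluripotent cells, fell (-3.85 ± 0.87 with all arrays, -3.17 without gd11 replicate 16 and -2.18 without 16 and 17). Pou5f1, also known as Oct4, was not called (189.6 ± 85.8 at pnd2 and 144 ± 55.7 at gd11, adjusted p = 0.508). Klf4 (1280.3 ± 452 against 231 ± 78.4), Alpl, tissue alkaline phosphatase (866 ± 156 against 198 ± 33.7), Sall4 (1116 ± 222 against 410.2 ± 66.6) and Lin28a (629 ± 30.9 against 278 ± 177) rose. Of these, Sall4 and Lin28a are also known from spermatogonia, and Klf4 is also on the stress list. Without pnd2 replicate 1, 5 members fell in place of 8.

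Genes of the early gonad split by direction, with 10 rising and 8 falling of 24 and a median of -0.11; without replicates 16 and 17, 8 rose and 9 fell. Sry, the Y-linked switch of testis determination, read 18.6, 64.2 and 17.1 at pnd2, against 182, 401, 397, 369 and 264 at gd11 (-2.68 ± 0.45, adjusted p = 7.47e-05). It was above 71.6 on every gd11 array and under it on every pnd2 array. Emx2, a homeobox gene of gonad and mesonephros, read 106, 103 and 158 at pnd2 against 531, 1657, 3108, 3065 and 2021 at gd11 (-3.65 ± 0.37, adjusted p = 1.66e-07; -4.24 without the 2 arrays). Podxl (601 ± 108 at pnd2 against 3321 ± 1173 at gd11), Gadd45g, which acts upstream of Sry (244 ± 35.4 against 1169 ± 608), and Cbx2, a Polycomb gene needed for Sry expression in the mouse (830.3 ± 55.7 against 2079.8 ± 377), fell. Gata4, a factor of somatic gonadal cells, was already present at gd11 and rose (3648 ± 486 against 676 ± 306), as did Osr1 (1580.0 ± 183 against 258 ± 191), by 2.85 ± 0.44, or 2.05 without the 2 arrays. Lhx9 was not called (2279.8 ± 309.8 and 2319 ± 984).

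Of 20 genes of the ovary and pre-granulosa cells, 3 rose and 9 fell, with a median of -0.56. Wnt4, which opposes the testis pathway and is also made by the mesonephros, read 448, 382 and 393 at pnd2, against 1331, 2078, 3405, 3709 and 2210.0 at gd11 (-2.49 ± 0.28, adjusted p = 5.88e-07). Foxl2, the defining granulosa gene, was not called (136 ± 9.58 at pnd2 and 159 ± 36.2 at gd11). Rspo1 was not called with all arrays (-0.64 ± 0.33, adjusted p = 0.113) and was called lower without replicates 16 and 17 (-1.14) or without 16 alone. The homeobox genes Irx3 (-3.39 ± 0.52, or -2.61 without replicates 16 and 17), Msx1 (-2.71 ± 0.30) and Msx2 (-2.55 ± 0.34) fell, and Nr0b1 (2.05 ± 0.30), Esr2 (1.79 ± 0.37) and Zglp1 (1.28 ± 0.32) rose. Nr0b1 is expressed by fetal testis cells too.

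Interstitial and stromal genes rose more often than they fell, with 17 up and 6 down of 27 and a median of 1.07 (15 and 6, with 0.60, without replicates 16 and 17). Dpt, the matrix protein dermatopontin, read 4643, 4142 and 3255 at pnd2, against 6.38, 23.7, 8.13, 4.00 and 4.14 at gd11 (7.01 ± 0.29, adjusted p = 8.75e-13). Ogn, a small matrix proteoglycan, read 6300.5, 6626 and 6459.6 at pnd2 against 34.1, 62.5, 93, 55.2 and 36.2 at gd11 (6.42 ± 0.27, adjusted p = 8.75e-13). Both were separated between the stages on every array, and Dpt was near background on all 5 gd11 arrays. Dcn, the proteoglycan decorin, was bright at gd11 too (18945 ± 1104 at pnd2 against 1655 ± 732 at gd11, 3.67 ± 0.36). Pdgfra, a receptor of stromal progenitors, rose (9007 ± 307 against 3757 ± 1156). Nr2f2, a nuclear receptor of the interstitium, was not called (2213 ± 364 and 2570.2 ± 869, -0.17 ± 0.22). Another probe set of Nr2f2 was called lower (-0.94, adjusted p = 0.0363), and the rest were not called. The paralogue Nr2f1 read 248, 234 and 208 at pnd2, against 6979, 6797, 7248, 5480.2 and 8393 at gd11. Nr2f1 fell by 4.78 on the log2 scale (adjusted p = 1.2e-10). Pdgfrb, Jag1, Notch3, Hes1 and Lhx2 fell by between 0.95 and 1.12.

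Smooth muscle and peritubular genes were higher in 12 of 18 and lower in 1, with a median of 1.78. Myh11, smooth muscle myosin, read 1250.4, 2270.0 and 2448 at pnd2, against 52.6, 47.2, 141, 50.1 and 203 at gd11 (4.18 ± 0.33, adjusted p = 4.62e-09). Acta2, smooth muscle actin, read 16867, 21809 and 24565 at pnd2 against 1205, 1288, 7418, 3074 and 12232 at gd11 (2.62 ± 0.51, adjusted p = 0.000311). Replicates 16 and 17 were the lowest gd11 arrays for Acta2 and not for Myh11, and without them the changes were 1.67 and 3.80. Tagln, another early smooth muscle gene, rose by 2.25 ± 0.57 with all arrays and 1.30 without the 2, and its lowest pnd2 array lay under its highest gd11 array. Itga8, an integrin of mesenchyme, was the fall (579 ± 73.1 at pnd2 against 2403 ± 830.4 at gd11). Without replicates 16 and 17, 11 rose and 3 fell, and without 16 alone 2 fell.

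Basement membrane and matrix genes made the largest count of rises among the lists: 34 of 45 were higher and 3 lower, with a median of 1.35. Col4a4, a collagen chain of basement membranes, read 2723, 2852 and 3237 at pnd2, against 15.7, 40.2, 27, 9.04 and 26.9 at gd11 (6.04 ± 0.21, adjusted p = 1.36e-13). Col4a3, its partner in the mature collagen IV network, rose and was near background at gd11 (449 ± 106 at pnd2, 14.6 ± 20.2 at gd11). Col4a1, the widespread chain, rose by 1.37 ± 0.13 and Col4a5 was not called (0.20 ± 0.17). Among laminins, Lama2 (3.68 ± 0.17), Lamc3 (3.19 ± 0.32) and Lamb2 (1.22 ± 0.15) rose, Lama5 fell (-0.80 ± 0.21) and Lama1, a chain of early basement membranes, was not called (1597 ± 145 at pnd2 and 1340.2 ± 252 at gd11). Eln, the gene of elastin (6340.2 ± 909 at pnd2 against 202 ± 159 at gd11), and the collagen VI chains Col6a1 (4.29 ± 0.25), Col6a2 (3.62 ± 0.20) and Col6a3 (3.05 ± 0.24) rose. Fbn2, the fibrillin of embryos (-0.72 ± 0.18), and Agrn (-1.36 ± 0.14) fell, but another probe set of each was not called (-0.19 for Fbn2 and -0.79 for Agrn).

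Endothelial genes were lower in 15 of 23 and higher in 5, with a median of -0.99 (18 and 3, with -1.28, without replicates 16 and 17). Kdr, a receptor of vascular endothelial growth factor, read 391, 359 and 353 at pnd2, against 362, 520.2, 1492, 1384 and 1394 at gd11 (-1.23 ± 0.34, adjusted p = 0.00563; -1.89 without the 2 arrays). Plvap, a protein of endothelial fenestrae, read 177, 158 and 165 at pnd2 against 944, 998, 2008, 1685 and 2079 at gd11 (-2.97 ± 0.21, adjusted p = 1.32e-09). Replicates 16 and 17 were the lowest of the 5 in both genes, and replicate 16 of Kdr lay within the pnd2 range. Aplnr (-2.28 ± 0.18) and Emcn (-2.03 ± 0.25) fell as well. Pecam1, which marks endothelium broadly, was not called (-0.14 ± 0.26) and was called lower without the 2 arrays (-0.58), whereas Cdh5, the endothelial cadherin, was called higher with all arrays (1.06 ± 0.33, adjusted p = 0.0113) and not without them (0.67, adjusted p = 0.0636). Another probe set of Cdh5 was not called with all arrays (0.60). Sox18 (1.22 ± 0.25), Eng (0.80 ± 0.19) and Gpihbp1 (0.89 ± 0.21), which carries lipoprotein lipase to capillaries, rose.

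Of 28 macrophage and leukocyte genes, 12 rose and 1 fell, with a median of 0.54. The rises were led by S100a8 (490.4 ± 172 at pnd2 against 17.1 ± 11 at gd11) and S100a9 (288 ± 107 against 13.4 ± 24.6), proteins of neutrophils and monocytes, and by the lysozymes Lyz1 (1956 ± 374 against 187 ± 99.3) and Lyz2 (1033 ± 215 against 155 ± 50.5). The defining genes moved less: Csf1r, the macrophage growth factor receptor, was not called (1081 ± 38.5 at pnd2 and 1117 ± 371 at gd11, 0.02 ± 0.27), Ptprc, the leukocyte antigen CD45, was not called (-0.51 ± 0.28) but was called lower without replicates 16 and 17 (-0.76), and Cd68 rose (275 ± 10.4 against 141 ± 29.3). Pf4, a chemokine of platelets and of fetal macrophages, fell (522 ± 87.7 against 1447 ± 294). Without replicates 16 and 17, 8 rose and 2 fell, without pnd2 replicate 1, 7 rose, and without gd11 replicate 18 or 19, 2 fell.

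Erythroid genes were lower in 13 of 19 and higher in 1, with a median of -1.31. Besides Hbb-y, the embryonic globins Hba-x, of the alpha type, and Hbb-bh1, of the beta type, were the largest falls of all called genes. Hba-x (chromosome 11) read 33.4, 51 and 6.76 at pnd2, against 24003, 26707, 25606, 23833 and 23866 at gd11 (-8.98 ± 0.44, adjusted p = 6.65e-12). Hbb-bh1 (chromosome 7) read 2.63, 38.3 and 4.87 at pnd2 against 24609, 26161, 23706, 26929.5 and 26854 at gd11 (-9.53 ± 0.37, adjusted p = 3.39e-13). At pnd2 every value of the 3 embryonic globins lay near background. Slc4a1, the anion exchanger of the red cell membrane (32.6 ± 6.51 at pnd2 against 746 ± 87.5 at gd11), Hemgn (-3.49 ± 0.56), Rhag (-2.17 ± 0.53) and Klf1, the erythroid master factor (-1.47 ± 0.24), fell too. Hbb-b2, an adult beta globin on a dim probe set, was called higher (87.5 ± 39.1 against 28.5 ± 20.8, 1.15 ± 0.35), but not without pnd2 replicate 1, which leaves no member higher. Its other probe set, with means of 127 at pnd2 and 132 at gd11, was not called (-0.05, adjusted p = 0.898). Most signal of the adult globins came from probe sets listed for several genes, which were not tested. A probe set for the adult beta globins (Hbb-bt, Hbb-bs, Hbb-b1 and Hbb-b2) read 12215 to 17179 at pnd2 and 2842 to 7506 at gd11, and a probe set for the alpha globins Hba-a1 and Hba-a2 read 16028 to 21686 at pnd2 and 24537 to 31540 at gd11. The arrays of the stages did not overlap in either, with adult beta globins higher at pnd2 and alpha globins lower.

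To set the genes that fell beside a globin still made by adult red cells, the 250 bases before the RefSeq starts of Hbb-y, Hba-x and Hbb-bt, an adult beta globin without a probe set of its own in the comparison, are shown (GRCm38.p6). Capitals mark, on either strand, the letters CACCC, which Krüppel-like factors bind, the letters CCAAT, bound by nuclear factor Y, the letters GATAA of erythroid GATA factors and the letters ATAAA of a TATA-like box. They are chr7:103853208-103853457, minus strand, for Hbb-y, chr11:32276350-32276599, plus strand, for Hba-x, and chr7:103813924-103814173, minus strand, for Hbb-bt.
Hbb-y: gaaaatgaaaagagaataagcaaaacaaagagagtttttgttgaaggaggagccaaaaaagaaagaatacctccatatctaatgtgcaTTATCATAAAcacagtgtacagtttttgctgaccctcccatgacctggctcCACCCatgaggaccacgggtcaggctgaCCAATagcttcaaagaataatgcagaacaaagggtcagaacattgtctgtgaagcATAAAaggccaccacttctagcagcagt
Hba-x: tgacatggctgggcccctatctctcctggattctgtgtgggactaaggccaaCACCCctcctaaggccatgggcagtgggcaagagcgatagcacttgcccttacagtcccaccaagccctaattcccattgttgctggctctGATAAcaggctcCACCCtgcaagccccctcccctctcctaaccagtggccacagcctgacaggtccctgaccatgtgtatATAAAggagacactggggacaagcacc
Hbb-bt: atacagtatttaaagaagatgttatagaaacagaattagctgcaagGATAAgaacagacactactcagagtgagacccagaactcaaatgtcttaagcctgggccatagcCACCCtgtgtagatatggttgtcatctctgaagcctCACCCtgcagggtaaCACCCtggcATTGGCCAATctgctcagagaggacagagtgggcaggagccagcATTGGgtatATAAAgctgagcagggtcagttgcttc
ATAAA starts 28, 27 and 27 bases before the start in Hbb-y, Hba-x and Hbb-bt. Hbb-y holds CACCC once, from 111 bases before the start, and CCAAT once, from 83 bases. Its GATAA match lies on the opposite strand 162 bases before the start and runs into another ATAAA, so the 2 share a run of capitals. Hba-x holds CACCC from 198 and 95 bases, GATAA from 107 bases and no CCAAT. Hbb-bt holds CACCC from 140, 104 and 89 bases, GATAA from 204 bases and CCAAT on both strands, where a forward and a reverse match share one run. These letters are common: on either strand 52.0% of 32851 promoters of this length hold CACCC, 33.8% CCAAT, 22.6% GATAA and 37.3% ATAAA, and the matches say nothing of binding.

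The marker lists of mesonephros, striated muscle and neural tissue held more falls than rises, and their part in other results was not tested. Of 23 genes of the mesonephros or its ducts, 11 were lower and 4 higher, with a median of -0.62 and summed intensities of 11309 to 12500 on pnd2 arrays and 9373 to 30467 on gd11 arrays. Without replicates 16 and 17, 16 fell and the median was -1.01. Pax8, a defining factor of nephric tissue, read 83.9, 73.2 and 85.4 at pnd2, against 209, 264, 407, 505 and 246 at gd11 (-1.69 ± 0.30, adjusted p = 0.000125). Lhx1, the other defining gene tested, was not called (-0.46 ± 0.50, adjusted p = 0.474). Tfap2b (-4.22 ± 0.41), Calb1 (-4.10 ± 0.49), Cdh6 (-3.65 ± 0.31), Cdh16 (-3.47 ± 0.64) and Wnt9b (-3.21 ± 0.55), genes of kidney and duct epithelium, fell, and Msln, a gene of the mesothelium that covers the testis, rose (251 ± 51.2 at pnd2 against 25.3 ± 18.8 at gd11). At gd11 only 1 of the 23 was near background, while 6 were at pnd2.

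Of 15 adrenal genes, 4 rose and 5 fell, against 24.2% and 24.4% of all genes. Their summed intensities were 2518 to 2615 at pnd2 and 1976 to 3976 at gd11. Without pnd2 replicate 1, 3 fell. All 4 rises and 4 of the 5 falls were 2-fold or more. A probe set of Pnmt other than the one used was called higher (641 at pnd2 against 8.81 at gd11, 4.36, adjusted p = 8.8e-08). A further Pnmt probe set was not called (-0.18). Mc2r, the receptor for adrenocorticotropic hormone, fell to near background (59.95 ± 24.1 at pnd2 against 421 ± 248 at gd11; -2.19 ± 0.43, or -2.92 without replicates 16 and 17), Cyp11b2 was near background at both stages (48 ± 16.2 and 28.5 ± 18.8), and Th was not called with all arrays (-0.94 ± 0.46, adjusted p = 0.101) and called lower without gd11 replicate 18 (-1.24). Of 23 genes of striated muscle, 1 rose and 9 fell (6 without replicates 16 and 17), with summed intensities of 1769 to 2160 at pnd2 and 3442 to 6579 at gd11; Actc1, the cardiac actin, led the falls (122 ± 19.2 against 1559 ± 1255). Of 13 liver genes, 4 rose and 1 fell (5 and 3 without replicates 16 and 17, 2 falls without pnd2 replicate 2), with sums of 2572 to 2828 at pnd2 and 904 to 3316 at gd11. Afp, the fetal plasma protein, rose (1342 ± 253 at pnd2 against 355 ± 371 at gd11), by 2.63 ± 0.70 with all arrays, 2.04 without gd11 replicate 16 and 1.51 without 16 and 17, and Alb, the albumin gene of hepatocytes, was near background at both stages (43.1 ± 50.4 and 49.6 ± 55.9).

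By limma, none of 28 neural genes rose and 20 fell (0 and 21 at an unadjusted p under 0.05), with a median of -2.70. The fall depended on which gd11 arrays were used: without replicates 16 and 17, 2 rose and 15 fell, with a median of -1.13. The median log2 level of the list was 6.30 to 6.46 on pnd2 arrays and 12.15, 11.22, 7.75, 7.28 and 8.37 on gd11 replicates 16 to 20, so even the lowest gd11 array lay above every pnd2 array. Nefl, a neurofilament of neurons, read 72, 62.8 and 41.7 at pnd2, against 17277, 12117, 1611, 914 and 2203 at gd11 (-5.54 ± 0.77, or -4.23 without the 2 arrays, where its adjusted p was 2.8e-06). Tubb3, a tubulin of neurons, turned round: it was not called with all arrays (-0.36 ± 0.98) and was called higher at pnd2 without the 2 (1.66, adjusted p = 0.000418). The 6 falls that shrank most were Dcx (-3.94 ± 0.89, -2.20 without the 2 arrays), Scg3 (-3.10 ± 1.05, -1.12), Fabp7 (-3.09 ± 1.07, -0.83), Miat (-2.91 ± 0.94, -1.11), Ncan (-2.53 ± 0.91, -0.69) and Stmn3 (-2.50 ± 0.93, -0.62), all genes of the nervous system; without the 2 arrays Scg3, Miat, Ncan and Stmn3 were no longer called. Leaving out 1 array alone ended the call of Scg3 (gd11 replicate 17, pnd2 replicates 1 and 3), Fabp7 (the same 3), Ncan (gd11 replicates 16 and 17, pnd2 replicates 2 and 3) and Stmn3 (gd11 replicates 16 and 17 and each pnd2 replicate). Without replicate 16 alone the falls of Dcx, Scg3, Fabp7, Miat, Ncan and Stmn3 were each more than 1.5 times smaller on the linear scale, that of Dcx being -3.14.

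**Figure D3:**
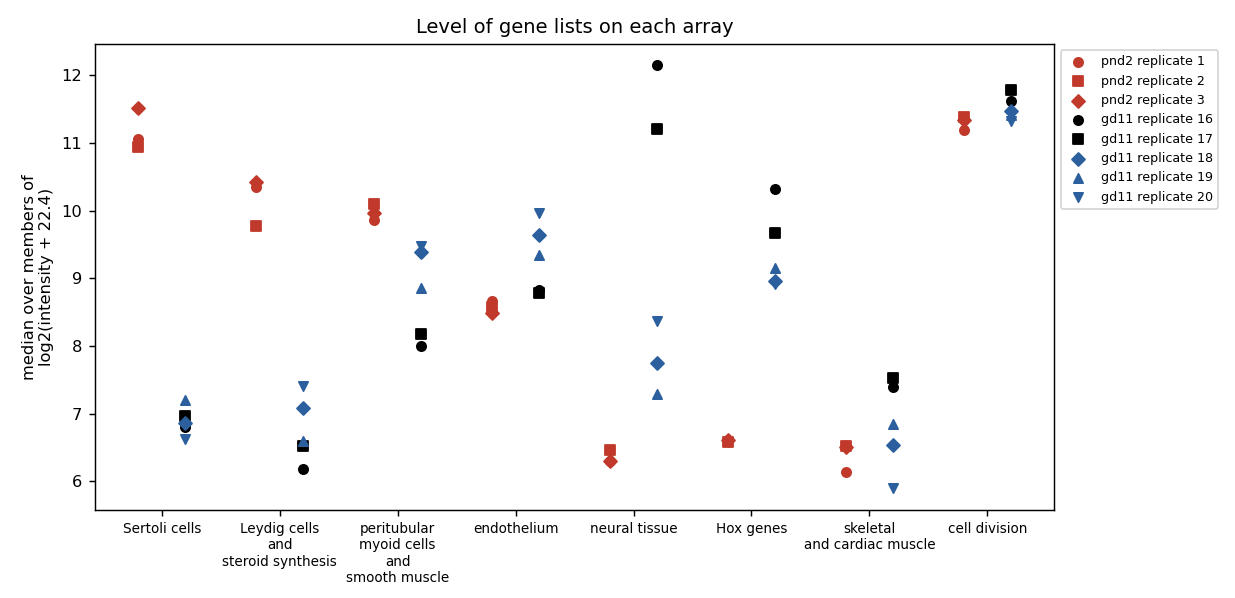
Median log2 level of the tested members of 8 gene lists on each array, pnd2 left of gd11 in each list, 1 point an array, with gd11 replicates 16 and 17 in black. The Sertoli and Leydig lists are higher on every pnd2 array than on any gd11 array, and in the neural list the black points, at 12.15 and 11.22, stand above the other gd11 arrays.

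Hox genes, which give cells their position along the body axis, were lower in 21 of 29 and higher in 1, with a median of -2.40 (20 and 3, with -1.82, without replicates 16 and 17). Without gd11 replicate 16 alone 4 rose, and without pnd2 replicate 3 none did. In 16 of the 29 these arrays were the 2 highest of gd11. Hoxa9 read 107, 78.7 and 110.0 at pnd2, against 7633, 6908, 2282, 2377 and 2415 at gd11 (-4.95 ± 0.43, adjusted p = 2.15e-08; -4.31 without the 2). Hoxa5 read 69.98, 41.7 and 75 at pnd2 against 1932, 1772, 2319.6, 3506 and 2330.0 at gd11 (-4.80 ± 0.37, adjusted p = 4.3e-09; -5.01 without the 2). Both were separated between the stages on every array. Hoxb6 (-4.34 ± 0.40) and Hoxc5 (-4.28 ± 0.37) fell, and every tested member of the Hoxc cluster did. The Hoxd cluster differed, with Hoxd9 high at both stages (2856 ± 375 at pnd2, 2169 ± 1020.0 at gd11) and called higher only without replicates 16 and 17 or without 16 alone (0.91), and Hoxd8 called higher with all arrays (0.44 ± 0.15) but not without pnd2 replicate 3. Another probe set of Hoxd8 was not called with all arrays (-0.13).

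Genes of embryonic growth, many of them targets of let-7 microRNAs, were lower in 13 of 23 and higher in 3, with a median of -1.09. After Hmga2, Ccnd1, cyclin D1, fell by 2.39 (712 ± 193 at pnd2 against 3821 ± 879 at gd11), and the insulin-like growth factor 2 mRNA-binding proteins Igf2bp1 (524 ± 117 against 2898 ± 1151) and Igf2bp3 (1154 ± 12.6 against 4414 ± 212) fell with Igf2 itself (8419.6 ± 1350.0 against 23394 ± 5880.3). The rises were Lin28a, Trim71 and Dlk1, of which Lin28a is an inhibitor of let-7 processing. Of 28 imprinted genes, 17 fell and 7 rose, with a median of -0.75. Cdkn1c, a growth-restraining cyclin kinase inhibitor, read 2874, 2501 and 2737 at pnd2, against 12884, 12457, 16244, 14225 and 16758 at gd11 (-2.41 ± 0.21, adjusted p = 1.7e-08). Nnat (2555 ± 422 against 13153 ± 3643), Slc38a4 (532 ± 86.2 against 2355 ± 1321) and Mest (7076 ± 397 against 20987 ± 2311) fell, whereas Gatm, an enzyme of creatine synthesis (4155 ± 721 against 136 ± 28.2), and Dlk1 (17182 ± 1744 against 8866 ± 3569) rose.

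Cell division genes shifted by small amounts: 19 of 35 fell, 3 of them 2-fold or more, and none rose by limma (20 and 1 at an unadjusted p under 0.05), with a median of -0.29; without replicates 16 and 17, 2 rose, and without either alone 1 did. Mki67, the proliferation antigen, read 4292, 4620.2 and 4426 at pnd2, against 5882, 6840.3, 5885, 6233 and 5565 at gd11 (-0.45 ± 0.10, adjusted p = 0.000954). Cdk1, the mitotic kinase, averaged 5018 ± 429 at pnd2 and 5241 ± 371 at gd11 and was not called (-0.06 ± 0.11). The falls of 2-fold or more were Rrm2, a subunit of ribonucleotide reductase (2462 ± 154 against 8031 ± 1237), and the cyclins E, Ccne1 (-1.35 ± 0.15) and Ccne2 (-1.24 ± 0.13). Of 20 cell cycle inhibitors, 6 rose and 6 fell, against 24.2% and 24.4% of all genes, with a median of 0.00. Cdkn2c (1483 ± 111 at pnd2 against 189 ± 57.6 at gd11) and Rbl2 (738 ± 123 against 284 ± 46.2) rose, Cdkn1c and Cdkn1a (167 ± 5.15 against 599 ± 292) fell, and Cdkn1b was called higher only without replicates 16 and 17 (0.17 ± 0.15 with all arrays, 0.37 without them).

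Among chromatin and DNA methylation genes, 13 of 30 fell and 7 rose, against 24.4% and 24.2% of all genes, with a median of -0.18. The Polycomb methyltransferases moved in opposite directions: Ezh2, of dividing cells, averaged 2439 ± 6.89 at pnd2 and 6096 ± 1146 at gd11 (-1.29 ± 0.11), and Ezh1, of resting cells, 742 ± 55.8 and 315 ± 75 (1.21 ± 0.16). Likewise Cbx7 rose (156 ± 14 against 29.1 ± 22) and Cbx2 fell (-1.28 ± 0.13). Dnmt1, the maintenance methyltransferase, was not called (0.06 ± 0.10), and its 2 other probe sets were called lower. Dnmt3a was called higher (0.53 ± 0.18), but not without replicates 16 and 17 or without pnd2 replicate 1 or 2, and 2 of its 4 other probe sets were called the opposite way.

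Glutathione and detoxification genes were higher in 24 of 46 and lower in 8, with a median of 0.62. The mu-class transferases Gstm1 and Gstm2 joined Gstm6 among the largest rises: Gstm2 read 20765, 19667 and 21183 at pnd2, against 418, 1255, 1891, 1423 and 1356 at gd11 (4.14 ± 0.29, adjusted p = 1.22e-09), and Gstm1 averaged 19430.3 ± 1216 and 1337 ± 394 (3.90 ± 0.21). Replicate 16 was the lowest gd11 array for both. Probe sets of this family can share sequence between members. Gsta2 (1506 ± 368 at pnd2 against 27.6 ± 28 at gd11), Sod3, the secreted superoxide dismutase (580.4 ± 97.7 against 12.2 ± 11.7), and Gclc (1.09 ± 0.12) and Gclm (1.40 ± 0.24), the subunits of the enzyme that starts glutathione synthesis, rose. Cyp1b1 (-1.24 ± 0.30), Gstk1 (-1.02 ± 0.16), Txnrd1 (-0.89 ± 0.12) and Gsto1 (-0.77 ± 0.12) fell, and Gpx3 was called lower only without replicates 16 and 17 or without 16 alone (-0.39).

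Retinoic acid genes went both ways, with 8 rising and 5 falling of 20, against 24.2% and 24.4% of all genes. Their median was 0.29. Without gd11 replicates 16 and 17, 6 rose and 7 fell, with a median of 0.21. Aldh1a1, a retinal dehydrogenase of Sertoli cells, read 17542, 18106 and 17278 at pnd2, against 121, 749.5, 1419, 1141 and 851 at gd11 (4.67 ± 0.45, adjusted p = 9.04e-08; 3.96 without the 2 arrays). Aldh1a2, the dehydrogenase of the mesonephros, read 1396, 833 and 1192 at pnd2 against 3440.2, 4198, 8793, 9893 and 5858 at gd11 (-2.39 ± 0.26, adjusted p = 4.34e-07). Cyp26b1, which degrades retinoic acid in the fetal testis, rose (2050.2 ± 247 at pnd2 against 399 ± 145 at gd11). Rarb, a receptor whose gene is itself a target of retinoic acid, read 63.4, 61.6 and 59.9 at pnd2 against 1706, 994, 1313, 1109 and 1010.4 at gd11 (-3.86 ± 0.30, adjusted p = 4.63e-09). The binding proteins Crabp1 (-3.48 ± 0.40) and Crabp2 (-5.25 ± 0.36, or -4.66 without the 2) fell as well, while Rarres1 (4.46 ± 0.34) and Rarres2 (2.57 ± 0.34, or 1.90 without the 2), named for their response to retinoids, rose. Without gd11 replicate 16, 8 members fell in place of 5.

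Of 37 genes of hedgehog, Wnt, BMP and FGF signalling, 13 rose and 15 fell, with a median of -0.29. The hedgehog genes rose with their ligand Dhh: Ptch1, the receptor and a target (6906 ± 134 at pnd2 against 3094 ± 433 at gd11), Gli1, a target factor (1319 ± 99.2 against 371 ± 74.8), and Hhip, a secreted inhibitor (1555 ± 36.4 against 105 ± 48.1). Gli2 (-0.42 ± 0.14) and Gli3 (-0.94 ± 0.15) fell. On the Wnt side, Wnt6 rose (1.96 ± 0.20), and the inhibitors Dkk1 (-3.22 ± 0.42, or -3.98 without replicates 16 and 17) and Dkk2 (-2.08 ± 0.42), the nuclear partner Lef1 (-2.35 ± 0.17) and the target Axin2 (-1.06 ± 0.30) fell. Bmp4 (209.6 ± 78.9 against 979.8 ± 395), which induces germ cells in the early embryo, and Id1, Id2 and Id3, targets of BMP signals, fell by 2.08, 0.58, 1.38 and 1.04.

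Hormone and growth factor receptors and related genes were higher in 13 of 27 and lower in 10, with a median of 0.64; without pnd2 replicate 1, 6 were lower. Amhr2, the receptor of anti-Müllerian hormone, was present at gd11 and rose (7751 ± 176 at pnd2 against 2163 ± 1093 at gd11), and so did the estrogen receptors Esr1 (1079 ± 201 against 144 ± 64.5) and Esr2 (113 ± 34.5 against 18.7 ± 20.1). Bmpr1b (-2.36 ± 0.27), Acvr2b (-1.90 ± 0.19) and Ednrb (-1.50 ± 0.39) fell, but the other probe sets of Ednrb were not called (-0.38 and -0.76). Rxfp2, the receptor for the Leydig hormone of testis descent, was dim and called lower (24.9 ± 29.5 against 87.4 ± 48.9), but not without gd11 replicate 18 or 19 or pnd2 replicate 1 or 3.

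Of 29 genes of the respiratory chain, 11 fell, none by 2-fold, and 4 rose, with a median of -0.09. Cox5a (-0.43 ± 0.09) and Cox6b1 (-0.43 ± 0.06) fell, Ndufa4 and Cox4i1 were not called (-0.07 ± 0.11 and -0.14 ± 0.07), and the rises of 2-fold or more were tissue-specific forms: Cyct, the testis cytochrome c (668 ± 172 at pnd2 against 125 ± 67.5 at gd11), Cox7a1 (1.33 ± 0.26) and Cox6a2 (1.20 ± 0.25). Of 22 genes of glycolysis and glucose uptake, 8 fell and 4 rose, with a median of -0.19. Pgk1 (3443 ± 171 against 10872 ± 749), Slc2a1, the widespread glucose transporter (1255 ± 85.5 against 3697 ± 598), Ldha (4299.6 ± 441 against 9660.0 ± 1874) and Pkm (-0.98 ± 0.10) fell, while Hk2, a hexokinase, rose (2811 ± 247 against 1130.4 ± 116).

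Of 24 immediate early and stress genes, 15 rose and 2 fell, with a median of 0.71. Hspa1a, an inducible heat shock protein, read 806, 911 and 1146 at pnd2, against 3.20, 34.7, 22.2, 73.7 and 80.4 at gd11 (4.06 ± 0.36, adjusted p = 2.81e-08). Egr1 (5179 ± 2028 at pnd2 against 552 ± 78.1 at gd11), Nr4a1 (1854 ± 1008 against 242 ± 44.5) and Fos (387 ± 125 against 116 ± 18.3), transcription factors that cells switch on within minutes, rose, and Jun was not called (-0.10 ± 0.18). Hsph1 (877 ± 51.9 against 4113 ± 497) and Hsp90aa1 (-0.75 ± 0.09), chaperones, fell. Of the sex check genes, Xist, the X inactivation transcript, was near background in both groups (42.4 ± 12 at pnd2 and 50.8 ± 17.6 at gd11), and the Y-linked Eif2s3y was above it (1054 ± 98.2 and 747 ± 130.2).

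**Figure D4:**
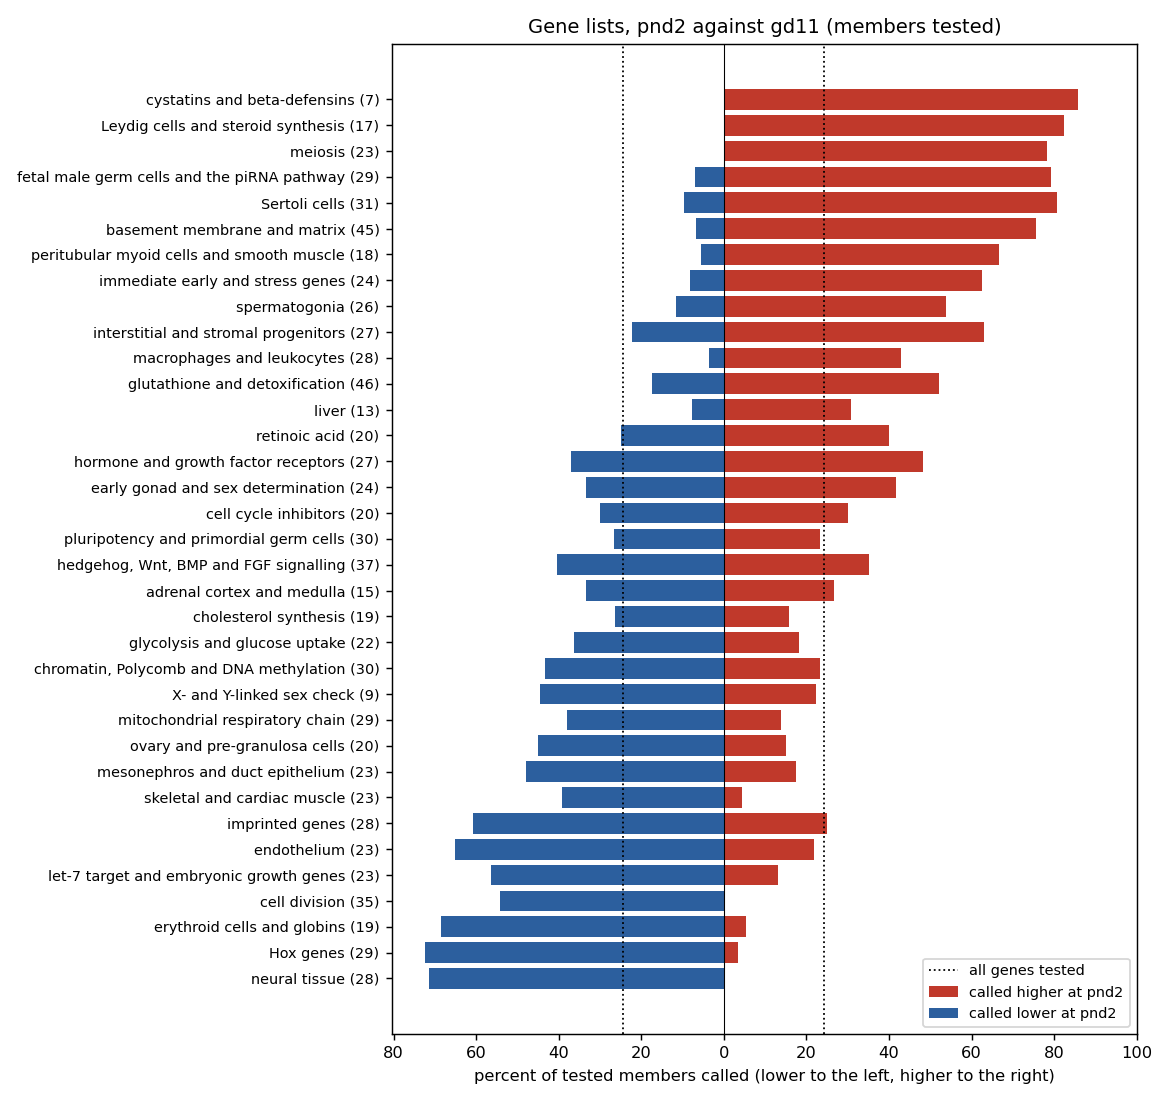
Percent of the tested members of each of 35 gene lists that were called higher (red, right of 0) or lower (blue, left of 0) at pnd2, with the number of members tested in brackets. Dotted lines mark the shares over all genes, 24.2% higher and 24.4% lower; the Leydig, cystatin, fetal germ cell, meiosis and Sertoli lists extend furthest to the right and the Hox and neural lists furthest to the left.

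The 12 arrays of the stages between show where along the interval each change lies. Among the 1610 genes that rose 2-fold or more, the median share of the log2 change present was 31.0% by gd12, 57.1% by gd14, 75.4% by gd16 and 92.9% by gd18. For the 1078 that fell it was 40.8%, 69.1%, 67.2% and 71.3%. Of the 1610, 889 had their highest stage mean at pnd2, 355 at gd18, 204 at gd16, 144 at gd14 and 18 at gd12. Some net rises followed a higher level in between, as in the steroid enzymes. Cyp17a1 averaged 6.78, 378, 17121, 26707, 12976 and 4004 at gd11, gd12, gd14, gd16, gd18 and pnd2, so its highest mean was at gd16 and its pnd2 mean lay far below it. Star took the same course (125, 357, 3403, 6284, 2035 and 1289), and so did Ddx4 among germ cell genes, whose highest mean was at gd14 (65.3, 1202, 4777, 3057, 1717 and 1760.4).

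Cst12 climbed at every stage (38, 126, 875, 4365, 16144 and 19499.8 in the same order), whereas Amh reached most of its log2 change by gd12 (9.61, 998, 1399, 1461, 2353 and 2389). Dpt stayed near background up to gd14 and rose late (9.26, 4.34, 40.3, 309.5, 2909 and 4013). The 3 embryonic globins were above 71.6 up to gd16 and near background at gd18 and pnd2: Hbb-bh1 averaged 25652, 8243, 965, 118, 6.60 and 15.3, Hba-x 24803, 17827, 6790.2, 553, 30.8 and 30.4 and Hbb-y 34129, 33452, 34070.4, 3801, 41.2 and 4.92, so Hbb-y stayed bright up to gd14. Its means there lie close to 34451, the lowest array maximum over the tested genes, so a change at this level may be missed. Whether the signal was at its limit was not tested. Hmga2 went down from gd14 on (14232, 13421, 4216, 995, 372 and 120.1), and Nr2f1 (6979.5, 2641, 475, 459, 452 and 230.0) and Rarb (1227, 326, 89.9, 129, 159 and 61.6) did so by gd12 and gd14 and then held a low level.

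Genes not called between the ends can still peak inside the interval. Of the genes not called between pnd2 and gd11, 1189 changed over the 6 stages by the moderated F-test of limma with a range of 2-fold or more, and 527 of these had a stage mean 2-fold or more above both ends. The 6 with the highest such peak were Dnmt3l, Dppa4, Pou5f1, Rrad, Prokr2 and Dscaml1, chosen for this pattern. Dnmt3l, which guides DNA methylation in male germ cells, averaged 10.4, 7.94, 1221, 2986, 1256 and 29.1 in order of stage. Dppa4 averaged 247, 2163, 7834, 4570.3, 1901 and 448 and Pou5f1 144, 906, 2264, 914, 362 and 189.6, both highest at gd14. Without pnd2 replicate 1, Dnmt3l was called higher at pnd2 (0.95), and so was Dppa4 without gd11 replicate 18 (1.02).

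**Figure D5:**
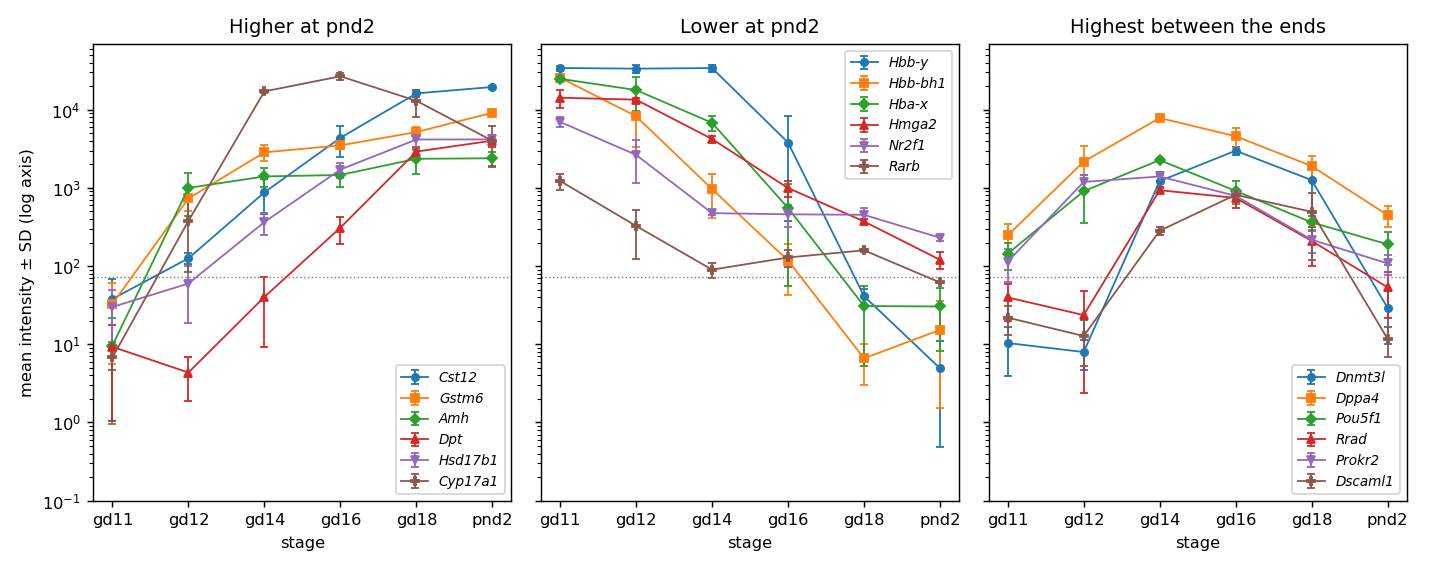
Mean intensity (± SD, log axis) at the 6 stages of 6 genes higher at pnd2, 6 lower at pnd2 and 6 highest in between, over 5 gd11 arrays and 3 arrays at every other stage; where the SD exceeds 90% of the mean, the lower bar is cut short. The dotted line is 71.6; Cyp17a1 passes its pnd2 mean of 4004 at gd14, gd16 and gd18, and all 3 embryonic globins are below the line at gd18 and pnd2.

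A comparison that shares no array with this one, gd18 against gd12 (3 arrays each), was fitted on its own, with 4244 genes called (29.6%), 2628 higher (18.3%) and 1616 lower (11.3%), with a median change of 0.07. By the labels each gd12 array was made from a pool, and no pool size is given for gd18, so age and pooling cannot be told apart there either. Of the 1610 genes that rose 2-fold or more between gd11 and pnd2, 1509 went the same way from gd12 to gd18, 1129 (70.1%) were called and 9 were called the opposite way. Of the 1078 that fell, 837 went the same way, 378 (35.1%) were called and 29 were called the opposite way. Cst12 changed by 6.78 ± 0.14 (adjusted p = 3.44e-09), Gstm6 by 2.81 ± 0.21 (adjusted p = 2.47e-05), Hmga2 by -5.09 ± 0.11 (adjusted p = 3.44e-09) and Hbb-y by -9.05 ± 0.15 (adjusted p = 9.76e-10). Nefl, by contrast, was not called there (-1.10 ± 0.58, adjusted p = 0.188), nor was Crabp2 (-0.71 ± 0.31) or Fndc3c1 (0.25 ± 0.28). By list, 19 of 31 Sertoli genes were called higher at gd18 than at gd12 and 4 lower, 13 and 1 of 17 Leydig genes, 33 and 1 of 45 matrix genes, and 0 and 25 of 35 cell division genes. Of the 28 neural genes 7 were higher and 6 lower, and of the 29 Hox genes 1 was higher and 8 were lower.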

How the data were processed

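Whole testes of CD-1 mice were profiled on single-channel arrays. The authors deposited 1 linear intensity for each probe set, made with GCOS per the submitters' processing notes; the version is not given. Judged by the values, the mean of each of the 21 arrays, with 2% of probe sets trimmed at either end, was 500.002 or 500.003, as a scaling of each array gives, so the intensities were used as deposited. Precision is limited by how many arrays each stage has.

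Of 45101 probe sets, 34945 carried 1 gene symbol, 932 several and 9160 none, and 64 were controls. Names came from the platform's annotation, and 34741 were matched by Entrez identifier to a mouse gene table of GRCm38.p6, with 204 left as given. For each value log2(intensity + 22.4) was taken, with 22.4 as the 20th percentile of the testis arrays, which understates changes of dim genes. A probe set was kept if 3 or more of the 20 testis arrays had it above their own 40th percentile, and the brightest kept probe set stood for its gene, leaving 14338 genes. A gene dim at pnd2 or gd11 could thus pass on arrays of other stages, and could then change by much in 1 direction only. Other probe sets of a gene can differ from the one used, and only some of them are given in the text. Limma 3.58.1 (lmFit, eBayes with an intensity trend, R 4.3.3) fitted 6 stage means to the 20 testis arrays with 14 residual and 4.94 prior degrees of freedom, and p-values were adjusted by Benjamini-Hochberg over all genes. The fit holds 1 spread a gene for all stages. The array of whole newborns entered no test. The comparison of gd18 with gd12 was fitted on its 6 arrays alone.

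The genes named by rule are the 12 largest rises and 12 largest falls whose arrays do not overlap and that stay called without gd11 replicates 16 and 17, the 6 largest rises and falls in mean intensity, the defining genes and up to 4 largest called rises and falls of each of 35 gene lists, 4 marker genes, 6 genes that peak between the ends and the 6 falls that shrink most without gd11 replicates 16 and 17. Other list members named were chosen after their values were seen. The comparison, the members and the lists were chosen with earlier results of these data known. Of 24 genes with the largest changes, 17 had a promoter entry in the RefSeq table used, and 5 promoters are shown. Alternatives changed the pseudocount, the filter, the choice of probe set, the scaling, the fit and the arrays used.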

Additional observations from a re-analysis of the deposited data

Results flagged for a closer look

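Among the 291 genes named by rule and the 35 gene lists, 20 genes and no list had a gd11 array far from the other 4, by Dixon's criterion. Chance alone is set to flag about 1 group in 20. The numbers given are the gap to the nearest array divided by the range of the 5. Replicate 16 was the lowest array for Aldh1a1 (0.7296), Amhr2 (0.7108), Dcn (0.7249), Gstm1 (0.7658), Gstm2 (0.7248), Inha (0.7725), Rspo1 (0.7185), Taf7l (0.8013) and Xist (0.7967), and the highest for Amh (0.7754). Replicate 17 was the highest for Dpt (0.7389), Hells (0.7103) and Hk2 (0.7935), and the lowest for Pnmt (0.8478). Replicate 18 was the lowest for Hsph1 (0.8973) and Igf2bp1 (0.7371). Replicate 19 was the highest for Dnmt3l (0.8872), Fshr (0.7708) and S100a9 (0.9935), and the lowest for Dnmt1 (0.7974). Groups of 3 arrays, such as pnd2, were not examined in this way.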

How the results depend on the processing

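No paired analysis was possible because the replicate numbers run on through the series and no number is shared by pnd2 and gd11. The count of called genes was 6965 with the settings used and reached 7318 with array weights. With only the pnd2 and gd11 arrays in the fit it was 5931, with 2968 higher and 2963 lower. Centring each array on its median moved the median change of all genes to -0.12 and gave 2968 genes higher and 4257 lower. With 100 added in place of 22.4, 698 genes fell 2-fold or more, against 1078. A test against a 2-fold change (limma's treat) called 989 genes, 670 higher and 319 lower. For gd18 against gd12, adding 100 gave 793 genes up and 211 down by 2-fold or more, against 1322 and 371. Leaving out 1 array at a time, the called genes ran from 5965 to 6973, those higher from 2974 to 3456 (2-fold: 1558 to 1694, and 1532 without gd11 replicates 16 and 17 together) and those lower from 2906 to 3558 (2-fold: 1023 to 1138). For gd18 against gd12 they ran from 2989 to 4413, higher from 1907 to 2729 (2-fold: 1140 to 1440) and lower from 1074, without gd18 replicate 4, to 1684 (2-fold: 312 to 388). Among the 291 named genes, these were counted as changing direction: Csf1r (-0.35 in the fit over the pnd2 and gd11 arrays alone without gd11 replicates 16 and 17, not called with all arrays), Dnmt1 (-0.27) and Uty (0.0293) with the probe set chosen on gd12 to gd18, Dnmt3a (-0.22) and Hells (-0.10) with the mean over probe sets, and Tubb3 (1.66 without gd11 replicates 16 and 17). Tubb3, not called with all arrays, was also positive without gd11 replicate 16 alone (0.51) or 17 alone (0.29), which was not counted. Why these genes changed direction was not tested. Without replicates 16 and 17, 269 of the 291 kept direction and call, 9 gained a call, 12 lost it and 1 reversed. The number of arrays, and signal near background, limit what small changes of dim genes can be called.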

Other observations

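Of 4479 probe sets that passed the filter and carry no gene name, 398 were called higher at pnd2 and 961 lower, from a fit of their own. Among the 14338 genes tested, 24.2% were called higher and 24.4% lower. Another probe set for the alpha globins Hba-a1 and Hba-a2 read 18542 to 21543 at pnd2 and 25784 to 31533 at gd11, and the probe set for the adult beta globins, higher at pnd2 than at gd11, was higher still at gd18, with 32398 to 36486. The remaining genes with the highest mean between the ends were Rrad, a small GTPase (39.7, 23.6, 933, 743, 209.8 and 53.3 from gd11 to pnd2 in order of stage), Prokr2, a prokineticin receptor (114, 1190.3, 1399, 791, 217 and 108), and Dscaml1, a neural adhesion molecule (21.9, 12.7, 283, 814, 494 and 11.7). Of the genes called neither way between pnd2 and gd11 that changed over the stages by 2-fold or more, 94 had a stage mean 2-fold or more below both ends. Dppa3 had the widest course of the pluripotency genes named, with means of 406, 5142, 14012, 751, 195 and 36.6 in order of stage.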
